A study of Mus musculus with 8 samples.

Results

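Entry of spermatogonia into differentiation was examined here through the transcripts of cell division. The 69 genes described were every row of a deposited expression table of 5736 genes whose symbol belonged to a fixed set of names, with no measured value used: cyclins of classes A, B, D and E, Aurora, Polo-like and Bub kinases, Ttk and Cdc20, NIMA-related kinases, CENP proteins and other kinetochore subunits, anaphase-promoting complex subunits, condensins with Top2a, kinesins, the spindle factors Tpx2, Nusap1, Prc1 and the Haus subunits, and alpha, beta and gamma tubulins. By role they fell into 5 cyclins, 5 mitotic kinases and checkpoint proteins, 2 NIMA-related kinases, 12 centromere and kinetochore proteins, 3 anaphase-promoting complex subunits, 3 condensin and topoisomerase genes, 22 kinesins, 6 spindle assembly factors and 11 tubulins and gamma-tubulin complex proteins. Genes of these families outside the table, such as the B-type cyclins and the Bub kinases, were not analysed here.

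The germ cells came from CD1:Uchl1-eGFP mice, in which the Uchl1 promoter drives EGFP, and were isolated by flow sorting for EGFP after WIN 18,446, which blocks retinoic acid (RA) synthesis, had been fed from postnatal day (P)1 at 100 µg/g body weight. A single subcutaneous dose of RA on P11 (10 µl at 10 µg/µl) then started differentiation. The labels list this dose alike for all 8 libraries, so whether Aal cells were collected before it cannot be told from them. The paper describes testes filled with undifferentiated spermatogonia at P11, and A1 and A3 cells after the RA dose. Effects of group, age and time since RA cannot be told apart. The 8 libraries comprised 2 of undifferentiated spermatogonia (Aal), 3 of type A1 and 3 of type A3 differentiating spermatogonia. All 3 groups had the transgene and the WIN 18,446 treatment, the age at collection was not given for each library, and at least 5 pups of 1 litter were pooled in a preparation, so p-values measured the spread between such preparations. In bulk RNA from sorted cells, a change in how many cells were dividing and a change in RNA per dividing cell cannot be told apart.

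Mitosis is driven by cyclin-dependent kinases whose cyclin partners accumulate and are destroyed in turn. D-type cyclins act in G1, E-type cyclins at the entry into S phase and A-type cyclins in S and G2, after which Aurora and Polo-like kinases direct spindle assembly, kinetochores attach chromosomes to microtubules, and the anaphase-promoting complex with Cdc20 releases the sister chromatids. Kinesins are motors that slide spindle microtubules, move chromosomes or, in other members, carry cargo in cells that are not dividing. Differentiating spermatogonia go through a series of synchronous divisions joined by cytoplasmic bridges, and RA is the signal that starts them.

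Values were FPKM (fragments per kilobase of gene, scaled to a fixed number of reads per library), a scale adjusted for gene length, so levels of different genes could be set side by side. The reads behind each value could be recovered from the FPKM steps, and library totals ranged from 18276164 to 27316451 reads, of which 34.0 to 34.4% lay in the table. A member was called changed where limma gave a p of at most 0.01 after Benjamini-Hochberg adjustment over all tested genes and an absolute log2 fold change above 1 on log2(FPKM + 1). A gene was tested where at least 2 of the libraries compared reached 1 FPKM. Of 22 listed markers of undifferentiated spermatogonia, 11 were in the table and their summed level was 393 to 435 FPKM in Aal, 93.8 to 143 in A1 and 86.0 to 93.7 in A3. The 6 of 10 listed markers of differentiating spermatogonia in the table summed to 119 to 131, 229 to 247 and 257 to 289 FPKM, and 3 of 11 general germ cell markers to 5006 to 5718, 4547 to 7836 and 5919 to 6516. Ccnd2 is one of the markers in the second list. In A3 against A1 Dmrtb1 of that list rose by 2.52 (log2). Rec8, Ccnd2, Prss50 and Dnmt3b differed by -0.80, -0.91, -0.22 and -0.16, and Sohlh2 by 0.06. The higher sum in A3 than in A1 thus followed Dmrtb1. The 3 germ cell markers were Dazl, Tex101 and Uchl1, and Uchl1 made up most of their sum (4048 to 7270 FPKM). Its promoter drives the EGFP used for sorting, so this sum is no independent measure of germ cell content. Over the 8 libraries Dazl ranged from 303 to 437 FPKM and Tex101 from 129 to 203. Of 29 Sertoli cell markers, 14 were in the table and none was at 0 in any library, while Sox9, Wt1 and Amh were not analysed here. The 14 summed to 43.0 to 55.6 FPKM in Aal. Their sums were 64.8, 62.6 and 420 in A1-1, A1-2 and A1-3, and 410, 303 and 222 in A3-1, A3-2 and A3-3. Clu was the largest of them in every library, with 220 FPKM in A1-3. Of 13 tested in A3 against Aal, 11 were called higher, and Trf was called lower (log2 fold change -1.62). Of 10 tested in A1 against Aal only Trf was called, and it was lower (-2.17). The sums thus hide a fall of Trf. Sums for Leydig cell markers (4 of 9 in the table) were 4.75 to 7.18, 10.1 to 18.8 and 20.3 to 24.1 FPKM. Fabp3 made up most of this sum in every library and rose by 2.06 (log2) in A3 against Aal. Hsd17b3 rose by 0.92, from 0.290 and 0.062 FPKM in Aal. Cyp17a1 differed by 0.13 (limma, adjusted p = 0.434). Cyp11a1 was lower, at 0.726 and 0.711 FPKM in Aal and 0.421, 0.314 and 0.215 in A3. The Leydig sum thus mainly followed Fabp3, and Leydig cell content was not tested. Peritubular myoid markers (4 of 11) summed to 2.45 to 4.88, 4.37 to 33.9 and 4.15 to 5.42, macrophage markers (3 of 11) to 0.534 to 0.673, 0.623 to 10.5 and 0.459 to 1.63, and endothelial markers (5 of 10) to 7.90 to 9.07, 5.21 to 6.62 and 3.1 to 3.55, with A1-3 the highest A1 library for each. None of the 7 red blood cell markers was in the table.

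In A1 against Aal, 67 members were tested and 20 were called higher, 29.9% of those tested, beside 4.19% of all 4632 genes tested. They were Top2a, Tubb3, Plk1, Prc1, Ccna2, Tpx2, Tubb4b, Tubb6, Aurka, Ccna1, Nusap1, Kif11, Birc5, Kif4, Tuba4a, Cdc20, Aurkb, Kif15, Kif2c and Kif22. Only Kif19a and Tubg2 were called lower, 2.99% of the members beside 4.97% of all genes. By adjusted p alone 31 members were higher and 5 lower, where 13.0% and 14.0% of all genes were. Tubb4a was among the members tested and reached the FPKM minimum through its A1 libraries alone. The median log2 fold change was 0.26 over the members and 0.03 over all genes tested. The call count rested on the Aal pair: fewer members were called when either Aal library was left out, which keeps 1 library in that group. The share of all genes called in these fits was not counted, so the drop is no result about the members.

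From A1 to A3, 68 members were tested and 1 was called, Ccnd1, which was higher. The background was 0.479% of 4590 genes called higher and 1.02% called lower. By adjusted p alone Ccnd1 and Tubb4b were higher and Ccnd2, Kif13a, Nek9, Tubb5 and Tubb6 lower, beside 2.16% and 5.45% of all genes. The members' median log2 fold change was -0.02 and that of all genes 0.01. A second member passed in some alternatives: Kif13a fell with a pseudocount of 0.1 (log2 fold change -1.22), and Tuba1a rose without A1 replicate 3 (1.02).

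In A3 against Aal, 67 members were tested, 20 were called higher (29.9%, beside 7.87% of 4687 genes) and 5 lower (7.46%, beside 9.69%). The lower calls were Tubg2, Kif19a, Kif13a, Nek9 and Ccnd2. By adjusted p alone 33 members were higher and 9 lower, where 21.9% and 21.8% of all genes were. The median log2 fold change was 0.43 over the members and 0.05 over all genes. The 2 comparisons with Aal share its libraries. The share of all genes called in both, in 1 or in none was not counted, so the next counts have no background. Side by side, 19 members were called in both, Ccna1, Kif22 and Tubb6 in A1 alone, and Ccnd1, Ccnd2, Kif13a, Kif20a, Nek9 and Spc24 in A3 alone, which leaves 41 members called in no comparison. Being called in 1 comparison and not in the other does not show a difference between A1 and A3, which the direct comparison above tested.

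**Figure D1:**
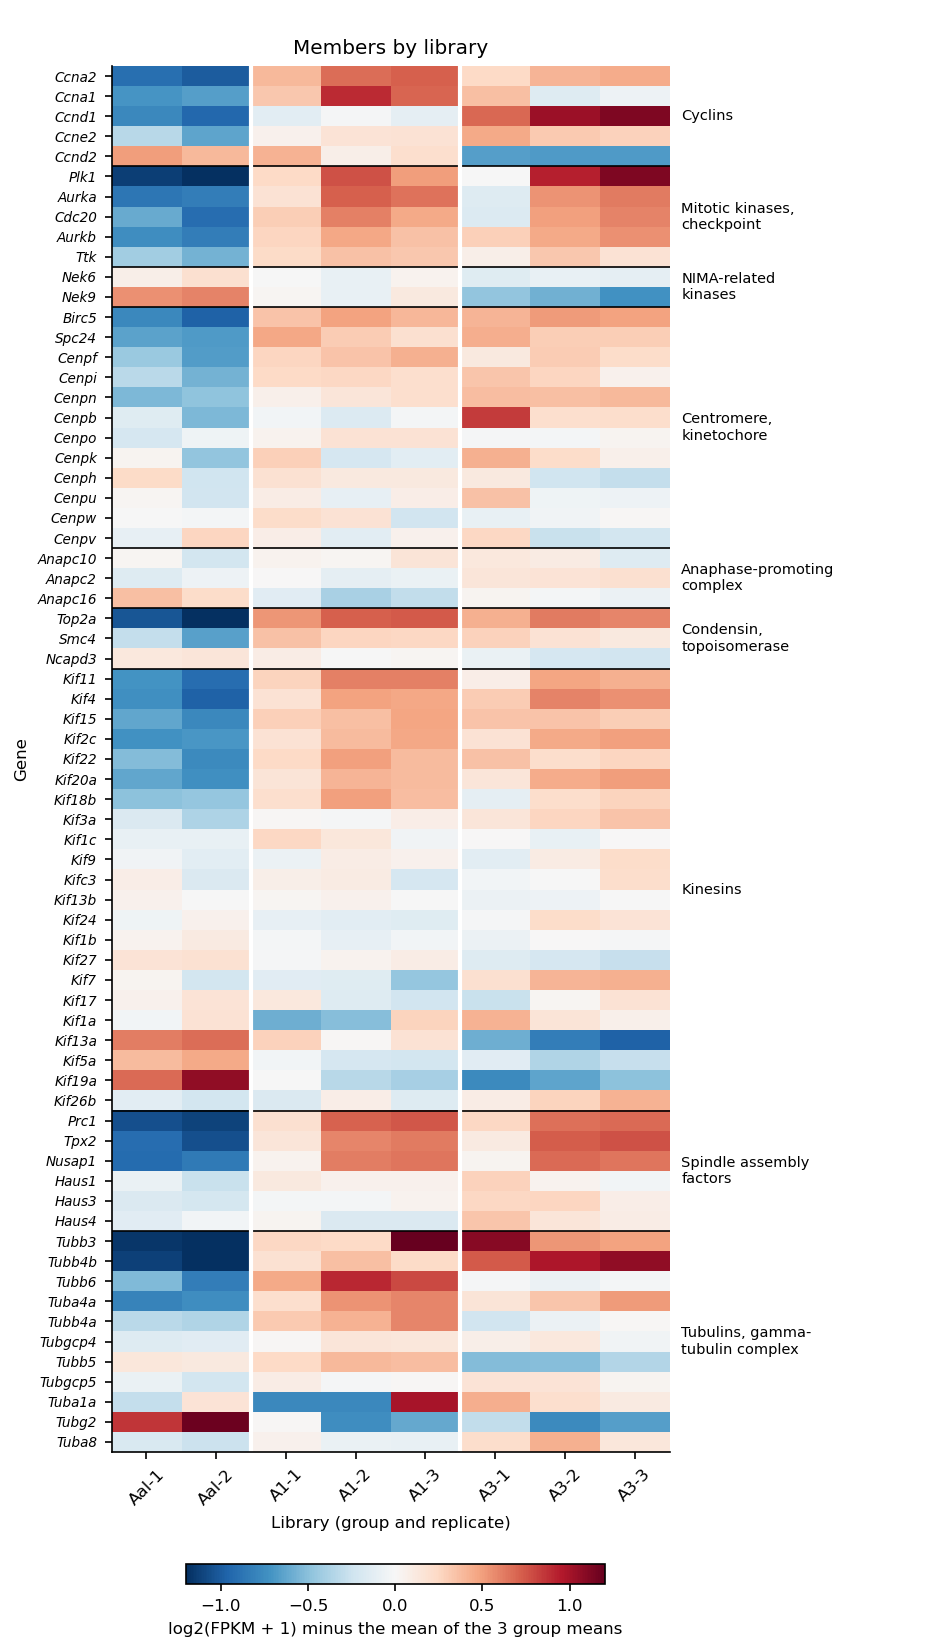
Levels of the 69 members (rows, by role and by log2 fold change of A1 against Aal) in the 8 libraries (columns), as log2(FPKM + 1) minus the mean of the 3 group means, with colours saturating beyond the ends of the scale. The cyclin A, mitotic kinase, Prc1, Tpx2, Nusap1 and several kinesin rows are lower in both Aal libraries than in every A1 and A3 library. The rows of the Haus subunits differ less, and Kif19a, Tubg2, Nek9 and Kif13a run the other way.

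**Figure D2:**
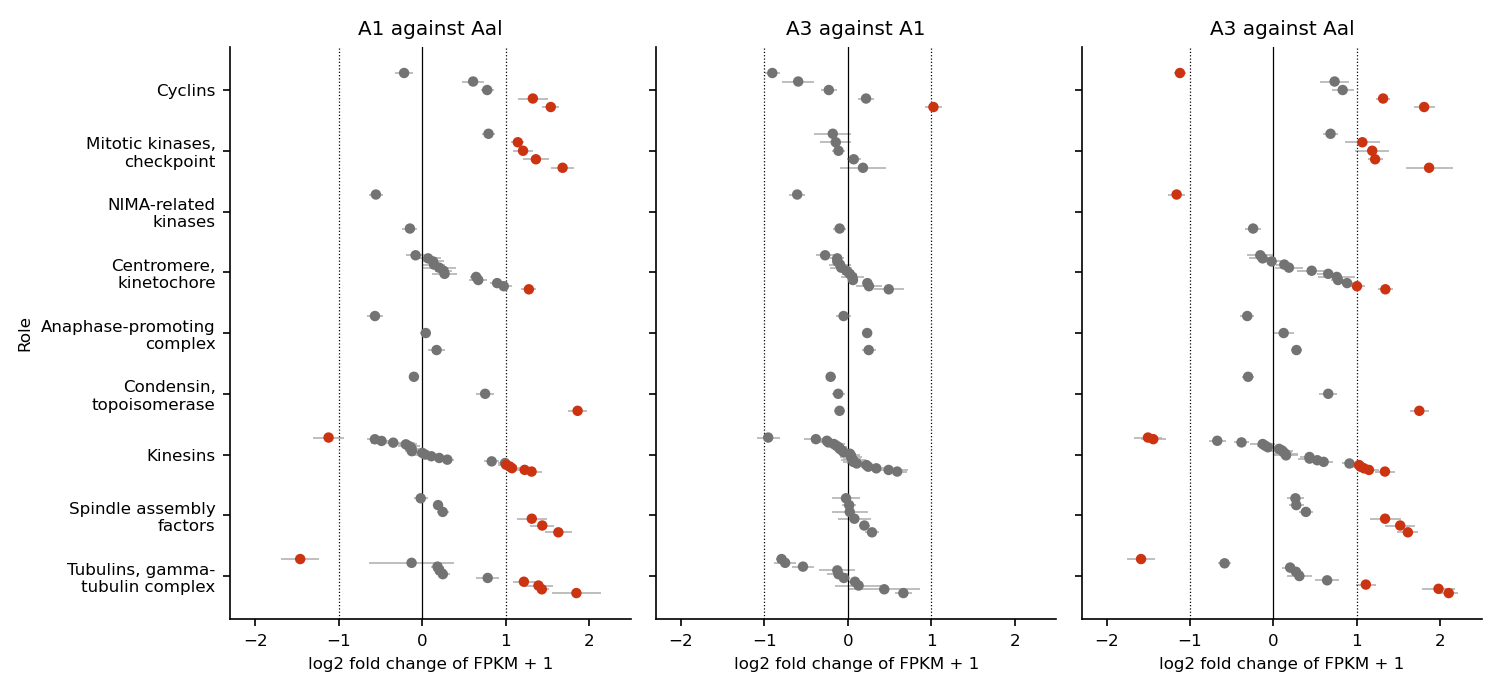
Log2 fold change of FPKM + 1 for each tested member (points, bars are standard errors) by role in the 3 comparisons, with called members in red, the others in grey, a line at 0 and dotted lines at the fold threshold. Red points stand at 22 members in A1 against Aal, 1 in A3 against A1 and 25 in A3 against Aal.

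Among mitotic kinases and checkpoint proteins, 4 of 5 were called higher in A1 and the same 4 in A3 against Aal. Polo-like kinase Plk1, which acts from mitotic entry to cytokinesis, stood at 18.1 and 16.7 FPKM in Aal, at 48.3, 70.0 and 58.0 in A1, and at 40.6, 78.8 and 89.6 in A3. Every A1 and A3 library lay above both Aal libraries, and A3-1 lay below all A1 libraries while A3-2 and A3-3 lay above them. Its log2 fold change was 1.68 ± 0.14 (SE; adjusted p = 0.000266) in A1 and 1.87 ± 0.28 (adjusted p = 0.000702) in A3 against Aal, and 0.18 ± 0.28 (adjusted p = 0.703, 95% confidence interval -0.46 to 0.83) in A3 against A1. Aurka, the spindle pole Aurora kinase, was at 19.96 and 20.6 FPKM in Aal, 42.2, 62.0 and 59.3 in A1, and 33.4, 54.6 and 58.0 in A3. Again the first A3 library was the lowest of the 6 differentiating libraries, and no group overlapped Aal. Aurka rose by 1.36 ± 0.16 on the log2 scale in A1 (adjusted p = 0.000591) and by 1.18 ± 0.20 in A3 (adjusted p = 0.00139). Aurkb, the kinase of the chromosomal passenger complex, varied less: 26.7 and 25.1 FPKM in Aal, 54.3, 63.1 and 58.3 in A1, and 55.5, 62.6 and 66.8 in A3, with log2 fold changes of 1.15 ± 0.08 and 1.22 ± 0.09 against Aal (adjusted p = 0.000173 and 2.88e-05).

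Cdc20, the activator of the anaphase-promoting complex, measured 41.0 and 32.8 FPKM in Aal, 77.2, 95.8 and 86.6 in A1, and 56.0, 88.7 and 95.1 in A3. It rose in A1 by 1.21 ± 0.12 (log2, adjusted p = 0.000370). The A3 change of 1.07 ± 0.21 (adjusted p = 0.00265) was close to the fold threshold and fell below it without A3 replicate 2 (0.97), without A3 replicate 3 (0.92) and with quantile scaling (0.95), and it missed the p threshold without Aal replicate 1 (adjusted p = 0.0108) and both thresholds without Aal replicate 2 (0.91, adjusted p = 0.0348). Cdc20 overlaps Elovl1 on the other strand, and whether the counting used strand was not stated. Without Aal replicate 1 or 2, Aurka missed the p threshold in A1 (adjusted p = 0.0121 and 0.0138) and in A3 (0.0155 and 0.0149), and without replicate 2 so did Plk1 in A3 (0.0108). Ttk, the checkpoint kinase that senses unattached kinetochores, was higher by adjusted p but under the fold threshold, with means of 26.4 ± 1.98 (SD, n = 2), 46.6 ± 2.08 (n = 3) and 43.1 ± 3.98 FPKM (n = 3) and a log2 fold change of 0.80 ± 0.07 in A1 (adjusted p = 0.000316).

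Many genes of the G2 and M phases carry a cell cycle homology region (CHR, searched as TTTGAA or its variant TTCGAA) near the start site, commonly with CCAAT boxes upstream of it. Promoters printed here, such as those of Plk1 and Aurka, belong to called members with large changes. They were picked among windows with a match, so that each holds a match was fixed by the choice. The windows of Birc5, Nusap1 and Tuba4a, also called higher, held none. Each window runs from 250 bases before to 50 after the RefSeq start (GRCm38.p6), is written 5′ to 3′ on the gene's strand, and has CHR, variant and CCAAT matches on either strand in capitals (TTCAAA and ATTGG are the same motifs on the opposite strand).
Plk1, chr7:122159185-122159484, plus strand: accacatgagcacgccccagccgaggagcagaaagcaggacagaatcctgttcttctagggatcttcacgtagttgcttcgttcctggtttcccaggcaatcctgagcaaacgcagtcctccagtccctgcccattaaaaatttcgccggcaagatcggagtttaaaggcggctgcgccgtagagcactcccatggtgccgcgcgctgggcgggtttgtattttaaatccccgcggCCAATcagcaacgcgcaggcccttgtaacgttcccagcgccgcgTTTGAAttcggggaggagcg
Aurka, chr2:172370521-172370820, minus strand: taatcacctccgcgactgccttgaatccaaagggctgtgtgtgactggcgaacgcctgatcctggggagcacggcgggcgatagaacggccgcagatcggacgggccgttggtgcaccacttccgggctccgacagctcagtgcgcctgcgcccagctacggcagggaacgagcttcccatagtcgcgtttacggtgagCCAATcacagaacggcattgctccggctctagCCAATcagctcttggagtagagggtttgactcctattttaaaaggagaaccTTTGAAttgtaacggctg
In both, a CCAAT box lay shortly before the start (left end at -14 in Plk1, and at -51 and -19 in Aurka) and a CHR shortly after it (30 and 32). The gene bodies are at chr7:129302951-129313389 (plus strand) and chr2:172181690-172196035 (minus strand) in the mm9 annotation, the build of the alignments. Coordinates of these 2 builds differ and none was converted.

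Of the 5 cyclins, 2 were called higher in A1, and 2 were called higher and 1 lower in A3 against Aal. Ccna2, the main S and G2 phase A-type cyclin, was at 32.5 and 30.4 FPKM in Aal, 80.8, 98.8 and 102 in A1, and 73.0, 82.0 and 84.1 in A3. It rose by 1.54 ± 0.10 (log2, adjusted p = 0.000173) in A1 and by 1.31 ± 0.08 (adjusted p = 1.46e-05) in A3 against Aal, and every differentiating library was above both Aal libraries. Ccna1, the A-type cyclin best known from male meiosis, was scarce throughout, with 1.62 and 1.71 FPKM in Aal, 4.37, 6.98 and 5.97 in A1, and 4.50, 2.85 and 3.1 in A3. Ccna1 rose in A1 by 1.33 ± 0.18 (adjusted p = 0.00123), a call lost without Aal replicate 1 (adjusted p = 0.0184) or 2 (0.0197). In A3 it stood 0.73 ± 0.17 above Aal (adjusted p = 0.00719), and A3 and A1 overlapped (-0.59 ± 0.19, adjusted p = 0.0673). Ccne2, which serves S phase entry, had means of 4.72 ± 0.834, 7.70 ± 0.408 and 9.13 ± 0.642 FPKM (SD, n = 2, 3 and 3) and was higher by adjusted p without passing the fold threshold (0.61 ± 0.13 in A1, adjusted p = 0.00798, and 0.83 ± 0.13 in A3, adjusted p = 0.000925).

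Of the D-type cyclins only Ccnd1 and Ccnd2 were analysed, and their order was reversed between Aal and A3. Ccnd1 was at 22.7 and 20.1 FPKM in Aal, 36.4, 39.3 and 36.7 in A1, and 64.7, 81.7 and 87.1 in A3, so that the 3 groups did not overlap. Ccnd2 was at 42.2 and 39.2 FPKM in Aal, 39.9, 31.2 and 34.2 in A1, and 18.3, 18.1 and 18.1 in A3. Here A1 overlapped Aal, and the 3 A3 libraries lay together below all others. Ccnd1 was higher than Ccnd2 in no Aal library and in all 3 A3 libraries: the ratio of their FPKM was 0.538 and 0.513 in Aal, 0.911, 1.26 and 1.07 in A1, and 3.53, 4.51 and 4.81 in A3. The log2 fold change of Ccnd1 was 0.78 ± 0.08 in A1 against Aal (adjusted p = 0.000372, under the fold threshold), 1.03 ± 0.11 in A3 against A1 (adjusted p = 0.00123) and 1.81 ± 0.13 in A3 against Aal (adjusted p = 2.29e-05). The A3 against A1 call passed the fold threshold narrowly and was lost without A3 replicate 3 (0.94, adjusted p = 0.00687), without A3 replicate 2 (0.99, adjusted p = 0.0105) and with quantile scaling (0.99, adjusted p = 0.00106). Ccnd2 fell by 0.91 ± 0.09 on the log2 scale from A1 to A3 (adjusted p = 0.00106, under the fold threshold) and by 1.12 ± 0.07 from Aal to A3 (adjusted p = 1.92e-05). It differed from Aal in A1 by -0.22 ± 0.11 (adjusted p = 0.143). Ccnd1 overlaps Oraov1, and Ccnd2 overlaps 9330179D12Rik, on the other strand in mm9.

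**Figure D3:**
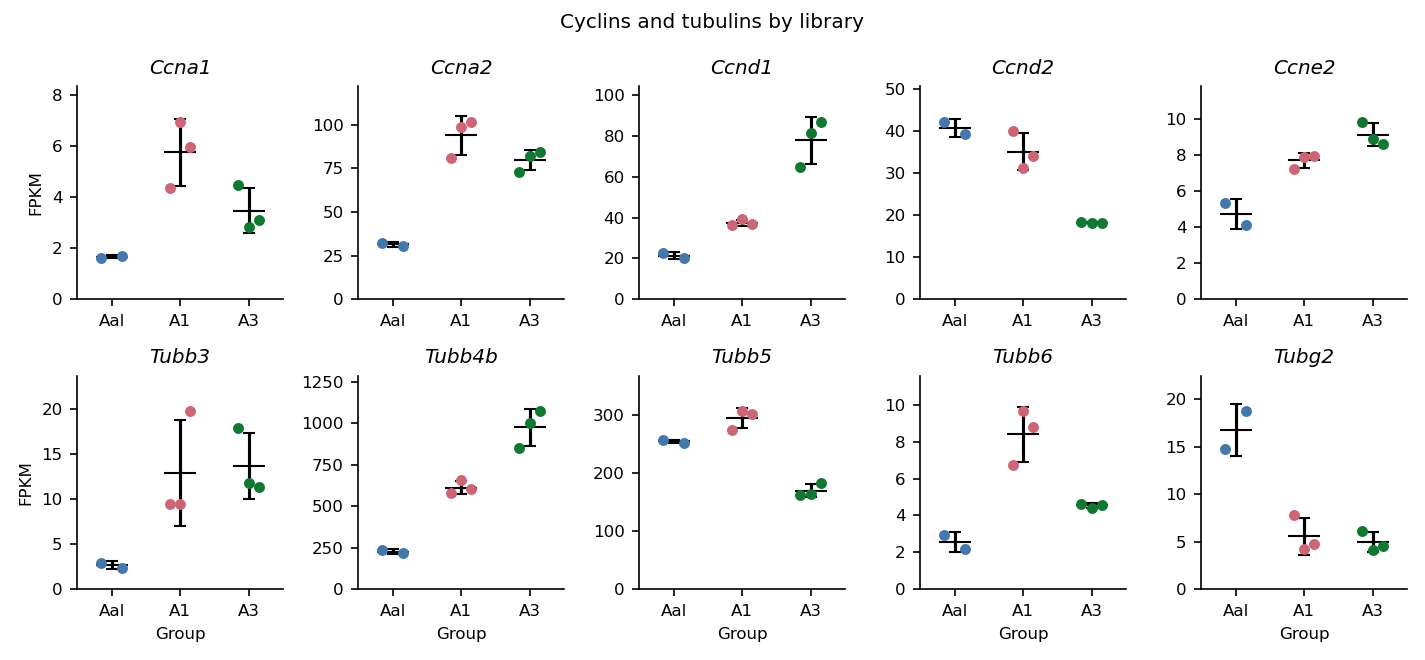
FPKM of 5 cyclins (upper row) and 5 tubulins (lower row) in each library (points) of Aal (n = 2), A1 (n = 3) and A3 (n = 3), with the group mean and SD in black and each axis starting at 0. Ccnd1 and Tubb4b climb over the 3 groups, Ccnd2 and Tubb5 are lowest in A3, Ccna1 and Tubb6 are highest in A1, and Tubg2 is high in Aal only.

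Spindle assembly factors divided into 3 that rose and 3 Haus subunits that were not called. Prc1, which bundles the antiparallel microtubules of the central spindle, was at 27.9 and 26.7 FPKM in Aal, 67.6, 97.1 and 99.5 in A1, and 70.2, 93.8 and 94.9 in A3. Tpx2, which activates Aurora A and nucleates spindle microtubules, was at 22.6 and 20.4, then 48.4, 65.9 and 67.9, then 47.0, 72.7 and 74.9 FPKM. Nusap1, a microtubule and chromatin binding protein of the spindle, was at 8.85 and 9.42, then 18.2, 27.6 and 28.1, then 18.1, 29.1 and 28.3 FPKM. In all 3 genes the first A1 and the first A3 library were lower than the other 2 of their group and still above both Aal libraries. The log2 fold changes against Aal in A1 and A3 were 1.63 ± 0.16 and 1.61 ± 0.13 for Prc1 (adjusted p = 0.000359 and 3.36e-05), 1.44 ± 0.14 and 1.52 ± 0.18 for Tpx2 (adjusted p = 0.000388 and 0.000221), and 1.31 ± 0.18 and 1.34 ± 0.19 for Nusap1 (adjusted p = 0.00124 and 0.000445). Calls in A1 missed the p threshold without Aal replicate 2 for Prc1 (adjusted p = 0.0101) and Tpx2 (0.0108), and without either Aal library for Nusap1 (0.0209 and 0.0208). Nusap1 overlaps Oip5, itself a centromere gene, on the other strand. The Haus subunits of augmin, which branches spindle microtubules, differed from Aal by -0.02 to 0.25 in A1 and by 0.26 to 0.39 in A3 (log2), and Haus3 alone had an adjusted p under 0.01 (0.39 ± 0.08 in A3, adjusted p = 0.00362).
Prc1, chr7:80294201-80294500, plus strand: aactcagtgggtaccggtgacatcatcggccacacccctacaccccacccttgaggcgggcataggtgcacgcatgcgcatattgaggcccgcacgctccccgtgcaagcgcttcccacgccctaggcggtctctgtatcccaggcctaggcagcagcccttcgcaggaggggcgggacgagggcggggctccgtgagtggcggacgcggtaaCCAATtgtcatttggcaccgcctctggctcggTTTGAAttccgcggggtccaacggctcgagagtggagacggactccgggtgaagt
The Prc1 window holds a CHR across the start itself (left end at -5) and a CCAAT box at -37.

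Top2a, the topoisomerase that disentangles sister DNA, rose in both comparisons with Aal. It was at 41.4 and 32.3 FPKM in Aal, 124, 141 and 143 in A1, and 115, 133 and 129 in A3. Both differentiating groups were well above Aal and overlapped each other. Its log2 fold change was 1.86 ± 0.11 in A1 (adjusted p = 0.000136), 1.75 ± 0.11 in A3 (adjusted p = 1.59e-05) and -0.12 ± 0.08 in A3 against A1 (adjusted p = 0.354). The condensin ATPase Smc4 was higher by adjusted p alone (0.76 ± 0.11 in A1, adjusted p = 0.00146), and Ncapd3, a subunit of condensin II, differed by -0.10 ± 0.06 in A1 (adjusted p = 0.228) and by -0.30 ± 0.07 in A3 (adjusted p = 0.00690).
Top2a, chr11:99024140-99024439, minus strand: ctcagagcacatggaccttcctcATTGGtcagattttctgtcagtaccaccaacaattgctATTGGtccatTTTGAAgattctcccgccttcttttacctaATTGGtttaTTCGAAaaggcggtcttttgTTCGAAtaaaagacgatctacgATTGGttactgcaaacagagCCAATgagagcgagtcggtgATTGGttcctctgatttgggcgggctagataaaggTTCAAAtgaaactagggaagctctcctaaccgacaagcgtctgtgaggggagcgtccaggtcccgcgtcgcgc
The Top2a window was the richest in matches of those printed, with a CHR at -179 and -23, the variant at -140 and -120, and 6 CCAAT boxes.

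The centromere and kinetochore group was mixed. Birc5 (survivin), the passenger complex subunit that targets Aurora B, was at 11.6 and 9.95 FPKM in Aal, 26.2, 29.0 and 27.3 in A1, and 27.6, 29.6 and 29.0 in A3, with a tight spread in every group. It rose by 1.28 ± 0.09 in A1 (log2, adjusted p = 0.000173) and 1.34 ± 0.09 in A3 (adjusted p = 2.06e-05). Cenpf, a kinetochore protein that peaks in G2 and M, was the most abundant of the 12, at 46.6 and 39.8, then 76.3, 81.3 and 86.3, then 69.6, 78.9 and 74.8 FPKM. Cenpf stayed under the fold threshold (0.90 ± 0.09 in A1, adjusted p = 0.000345, and 0.77 ± 0.09 in A3, adjusted p = 0.000177), and passed it in A1 without Aal replicate 1 (1.01). Spc24, a subunit of the Ndc80 complex, was at the threshold in both comparisons, at 0.98 ± 0.10 in A1 (adjusted p = 0.000416, not called) and 1.00 ± 0.09 in A3 (adjusted p = 5.93e-05, called), and the A3 call was lost without A3 replicate 1 (0.95) or Aal replicate 2 (0.98) and with median-ratio scaling (0.95). In A1 it was called with a pseudocount of 0.1 (1.04), with voom (1.06) and without A1 replicate 3 (1.04). Cenpn and Cenpi were higher by adjusted p alone in both comparisons. The other 7 (Cenpb, Cenph, Cenpk, Cenpo, Cenpu, Cenpv and Cenpw) passed no threshold, with log2 fold changes of -0.08 to 0.27 in A1 and -0.16 to 0.76 in A3. The upper end was Cenpb, at 8.62 FPKM in A3-1 and 5.18 and 5.20 in A3-2 and A3-3.

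Of 21 kinesins tested in A1, 5 were called higher, and 4 of these were among the 5 called higher in A3. Kif11, the motor that pushes spindle poles apart, was at 19.6 and 17.0 FPKM in Aal, 39.7, 50.7 and 50.7 in A1, and 34.9, 46.0 and 44.5 in A3. Kif4, the chromokinesin of the chromosome arms and central spindle, was at 7.97 and 6.63, then 15.9, 19.9 and 19.6, then 17.5, 21.6 and 20.9 FPKM. Kif20a, a cytokinesis motor, was at 37.0 and 34.1, then 64.3, 76.5 and 75.3, then 63.6, 78.9 and 82.0 FPKM. For all 3, no A1 or A3 library came down to the Aal level, and A1 overlapped A3. The log2 fold changes in A1 and A3 were 1.31 ± 0.12 and 1.14 ± 0.13 for Kif11 (adjusted p = 0.000316 and 0.000142) and 1.23 ± 0.13 and 1.34 ± 0.12 for Kif4 (adjusted p = 0.000420 and 6.16e-05). Kif20a was at 0.99 ± 0.09 in A1 (adjusted p = 0.000287, not called) and 1.04 ± 0.11 in A3 (adjusted p = 0.000123, called). The A3 call was lost without A3 replicate 3 (0.97), without Aal replicate 2 (0.99) and with median-ratio (0.99) or quantile scaling (0.93). In A1 Kif20a was called with a pseudocount of 0.1 (1.01), with voom (1.02) and without A1 replicate 1 (1.07). Kif15, the spindle motor that backs up Kif11, and Kif2c, a depolymerase that corrects attachments, rose in both (1.08 and 1.05 in A1, 1.03 and 1.09 in A3), and Kif22, the chromokinesin Kid, in A1 (1.01). These calls lay near the threshold: Kif22 lost its own without A1 replicate 2 (0.95) or Aal replicate 2 (0.89) and with median-ratio or quantile scaling (0.96 in each). Kif2c lost its call in A1 without A1 replicate 3 (0.99) and with median-ratio (1.00, just under the threshold) or quantile scaling (0.99), and in A3 with quantile scaling (0.99). Kif15 lost its call in A3 without Aal replicate 2 (0.95) and with median-ratio scaling (0.98).

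Kif19a and Kif13a fell. Kif19a, whose product shortens microtubules at the tips of cilia, went from 4.87 and 6.66 FPKM in Aal to 2.65, 1.9 and 1.77 in A1 and 1.15, 1.36 and 1.60 in A3, and the 3 groups did not overlap. Its log2 fold change was -1.12 ± 0.18 in A1 (adjusted p = 0.00246) and -1.50 ± 0.16 in A3 (adjusted p = 0.000132), and the A1 call was lost without Aal replicate 1 (adjusted p = 0.0117) or replicate 2 (-0.93, adjusted p = 0.0378). Kif13a, a cargo motor of endosomes, went stepwise from 7.29 and 7.64 FPKM to 5.56, 4.48 and 5.12 and then to 2.61, 2.04 and 1.76, again with no overlap. It fell by 1.44 ± 0.15 on the log2 scale in A3 against Aal (adjusted p = 0.000114), of which -0.49 ± 0.12 came in A1 (adjusted p = 0.0163) and -0.95 ± 0.14 between A1 and A3 (adjusted p = 0.00415). The neuronal transport motor Kif5a was lower by adjusted p alone in A1 (-0.57 ± 0.09, adjusted p = 0.00253) and A3 (-0.67 ± 0.10, adjusted p = 0.000672). Of the remaining 13 kinesins, Kif18b was higher by adjusted p alone in both comparisons with Aal, and in A3 so was Kif3a while Kif27 was lower. Kif26b and Kif1a were close to the 1 FPKM minimum. Kif26b was not tested in A1 against Aal and was tested elsewhere only through its A3 libraries.

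Nek9, a kinase that acts upstream of centrosome separation, fell at each step. It was at 23.6 and 24.6 FPKM in Aal, 16.2, 14.9 and 17.3 in A1, and 11.2, 10.3 and 9.23 in A3, with no overlap between groups. The log2 fold change was -0.55 ± 0.08 in A1 against Aal (adjusted p = 0.00190), -0.61 ± 0.09 in A3 against A1 (adjusted p = 0.00515) and -1.16 ± 0.10 in A3 against Aal (adjusted p = 5.20e-05), so that the net change alone was called. Nek6, a kinase that Nek9 activates, differed by -0.15 ± 0.09 in A1 (adjusted p = 0.239) and -0.24 ± 0.09 in A3 (adjusted p = 0.0556). Subunits of the anaphase-promoting complex were not called. Anapc2, the cullin subunit, was at 66.4 and 70.6 FPKM in Aal, 73.8, 68.5 and 69.6 in A1, and 81.9, 82.9 and 84.5 in A3. Anapc16, a small accessory subunit, was at 25.2 and 22.8, then 17.6, 14.6 and 15.6, then 19.8, 19.0 and 18.4 FPKM. Anapc2 was higher in A3 by adjusted p alone (0.28 ± 0.06, adjusted p = 0.00622) and Anapc16 lower in A1 (-0.57 ± 0.10, adjusted p = 0.00336), with A1 the lowest group. Anapc10 differed from Aal by 0.17 ± 0.10 and 0.12 ± 0.12 in A1 and A3 (adjusted p = 0.209 and 0.419).

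Tubb4b (annotated as Tubb2c in mm9), a broadly expressed beta tubulin, was at 235 and 217 FPKM in Aal, 581, 657 and 601 in A1, and 853, 1004 and 1073 in A3. It rose by 1.43 ± 0.09 in A1 (adjusted p = 0.000136) and 2.10 ± 0.11 in A3 against Aal (adjusted p = 1.15e-05), with 0.67 ± 0.10 between A1 and A3 (adjusted p = 0.00443, under the fold threshold). Tubb5, a widely expressed beta tubulin, was at 256 and 252, then 274, 306 and 302, then 162, 163 and 182 FPKM. Tubb5 fell from A1 to A3 by 0.79 ± 0.07 (adjusted p = 0.000839) by p alone, and from Aal to A3 by 0.59 ± 0.08 (adjusted p = 0.000332). Of the summed FPKM of the 5 beta tubulins in the table, Tubb4b made up 47.2 and 45.8% in Aal, 66.6, 66.8 and 64.4% in A1, and 82.2, 84.8 and 84.3% in A3, and Tubb5 51.5 and 53.2%, then 31.4, 31.1 and 32.3%, then 15.6, 13.8 and 14.3%. The sum itself was 498 and 473 FPKM in Aal, 872, 983 and 933 in A1, and 1038, 1184 and 1272 in A3. The 3 groups did not overlap in either share or in the sum.

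Tubb6, a beta tubulin of many tissues, was highest in A1: 2.94 and 2.19 FPKM in Aal, 6.77, 9.66 and 8.82 in A1, and 4.63, 4.41 and 4.59 in A3. It rose in A1 by 1.39 ± 0.17 (adjusted p = 0.000830), a call lost without Aal replicate 2 (adjusted p = 0.0158), and was lower in A3 than in A1 by 0.75 ± 0.13 on the log2 scale (-0.75, adjusted p = 0.00799) by p alone. Tubg2, a gamma tubulin for microtubule nucleation, went from 14.8 and 18.7 FPKM to 7.83, 4.22 and 4.71 and then 6.12, 4.15 and 4.52, with every differentiating library under both Aal libraries. Its log2 fold change was -1.46 ± 0.23 in A1 (adjusted p = 0.00221) and -1.59 ± 0.17 in A3 (adjusted p = 0.000121), and the A1 call was lost without Aal replicate 1 (adjusted p = 0.0185) or 2 (0.0403). In the mm9 transcripts 7.9% of the 75-base words of Tubg2 also occur in its near copy Tubg1, so a part of its reads cannot be assigned to either. Tuba4a, an alpha tubulin, rose in A1 (1.22 ± 0.13, adjusted p = 0.000484) and A3 (1.11 ± 0.12, adjusted p = 0.000151), the first call being lost without Aal replicate 2 (adjusted p = 0.0106), and it overlaps Stk16 on the other strand. The gamma-tubulin complex proteins Tubgcp4 and Tubgcp5 differed from Aal by 0.18 to 0.27 (log2) and passed no threshold.

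Tubb3, the beta tubulin used as a marker of neurons, rose from 2.96 and 2.38 FPKM in Aal to 9.51, 9.48 and 19.8 in A1 and 17.9, 11.8 and 11.4 in A3. The values in A1-3 and A3-1 were the highest, and these were also the libraries with the highest summed Sertoli cell markers (420 and 410 FPKM). Tubb3 was higher by 1.85 ± 0.30 in A1 (log2, adjusted p = 0.00246) and 1.98 ± 0.19 in A3 (adjusted p = 8.57e-05). Without A1 replicate 3, where the other A1 libraries had Sertoli sums of 64.8 and 62.6 FPKM, the A1 value was 1.52 ± 0.14 (adjusted p = 4.7e-05), and the call was lost without Aal replicate 1 (adjusted p = 0.0250) or 2 (0.0411). Tuba1a showed the same 2 libraries on top of their groups, with 16.4 and 22.6 FPKM in Aal, 11.4, 11.3 and 40.9 in A1, and 27.6, 23.3 and 21.8 in A3, and was not called (-0.13 ± 0.51 in A1, adjusted p = 0.865). In its transcripts 49.6% of the 75-base words also occur in Tuba1b or Tuba1c. The part of other cell types in these values was not tested. Tubb4a reached 1 FPKM in the A1 libraries alone (1.26, 1.43 and 1.72, beside 0.411 to 0.835 in Aal and A3), and Tuba8 reached it in none and was never tested.
Tubb4b, chr2:25224653-25224952, minus strand: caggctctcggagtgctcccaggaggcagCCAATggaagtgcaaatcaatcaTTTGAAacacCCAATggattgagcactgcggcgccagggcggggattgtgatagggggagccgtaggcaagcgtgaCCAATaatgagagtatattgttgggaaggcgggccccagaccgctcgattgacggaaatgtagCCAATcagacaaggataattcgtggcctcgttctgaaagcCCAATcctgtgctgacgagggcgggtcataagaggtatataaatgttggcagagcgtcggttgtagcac
Tubb3, chr8:123411303-123411602, plus strand: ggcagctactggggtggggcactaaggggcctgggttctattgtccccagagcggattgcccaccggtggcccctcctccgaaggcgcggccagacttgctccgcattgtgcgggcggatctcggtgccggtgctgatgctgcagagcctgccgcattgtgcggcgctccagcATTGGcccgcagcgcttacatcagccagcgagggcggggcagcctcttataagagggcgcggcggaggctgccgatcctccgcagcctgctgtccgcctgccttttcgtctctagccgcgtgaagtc
Both of these tubulin genes rose in A1 and A3, and their windows differ in their matches. Tubb4b has 5 CCAAT boxes and a CHR far upstream (left end at -198). Tubb3 has 1 CCAAT box on the opposite strand at -77 and no CHR.

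Over all members with a RefSeq promoter window (54 of 69, in 63 windows), TTTGAA was found on either strand in 68.8% of the 16 genes called higher against Aal in A1 or A3, in 26.3% of the 38 others, in 14.6% of the 4350 table genes with a window and in 20.2% of all 27025 genes. For CCAAT the shares were 68.8%, 52.6%, 42.5% and 41.1%, and for a CHR or its variant together with CCAAT 56.2%, 21.1%, 6.67% and 8.61%. With its left end within 50 bases of the start, TTTGAA was found in 9 of the 16 genes (56.2%), 18.4% of the other members, 3.70% of table genes and 5.72% of all genes. The variant TTCGAA was in 6.25%, 2.63%, 2.34% and 1.80% of these sets. These are letter matches in fixed windows and were not tested. Members with no window were Aurkb, Ccna2, Ccnd1, Ccnd2, Ccne2, Haus1, Kif13b, Kif19a, Kif20a, Kif5a, Kifc3, Smc4, Spc24, Tpx2 and Tubb6.

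**Figure D4:**
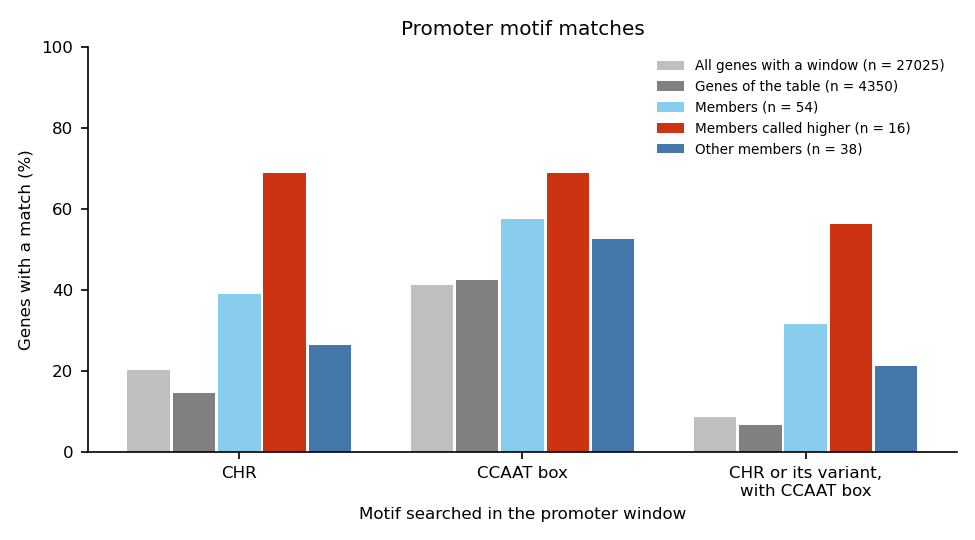
Percentage of genes (bars, axis from 0 to 100) whose promoter window holds the CHR, the CCAAT box, or a CHR or its variant together with a CCAAT box, for all genes, the table's genes, all members, members called higher against Aal in A1 or A3, and other members. The CHR bar of the members called higher is at 68.8%, and that of the other members at 26.3%.

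Within groups, replicate 1 of both A1 and A3 was low for the genes that rose. Over the 23 members called higher against Aal in A1 or A3, the median difference in log2(FPKM + 1) from the mean of the other 2 libraries of the group was -0.29 in A1-1 and -0.27 in A3-1, beside 0.00 and 0.02 for all 4789 genes tested. For the 5 mitotic kinases and checkpoint proteins it was -0.24 in A1-1 and -0.70 in A3-1, with Plk1 the lowest in A3-1 at -1.03. The kinetochore group went the other way in A3-1, with a median of 0.16. A3-1 had 18944949 reads, near the low end of the totals, and the highest Sertoli sum of the A3 libraries. A1-1 had 21356891 reads and a Sertoli sum of 64.8 FPKM, beside 62.6 and 420 in the other A1 libraries. The part of either in the difference was not tested. Without A3 replicate 1 the log2 fold change of Plk1 in A3 against Aal was 2.21 ± 0.09 and that of Aurka 1.43 ± 0.08.

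**Figure D5:**
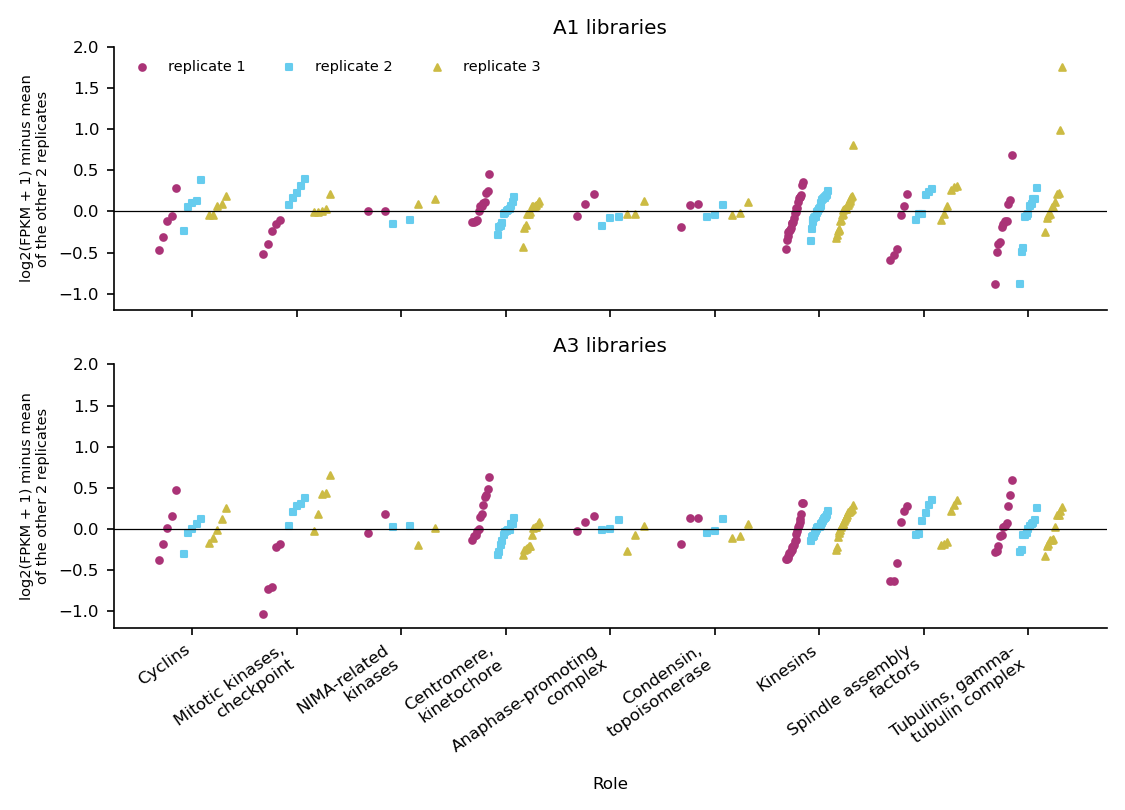
Difference of each member's log2(FPKM + 1) in 1 library from the mean of the other 2 libraries of its group, by role, for the A1 (upper) and A3 (lower) libraries, with circles, squares and triangles for replicates 1, 2 and 3. The circles of A3-1 lie lowest among mitotic kinases, down to -1.03, and the highest points in the A1 panel are tubulins of A1-3, up to 1.76.

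Genes of division outside these families, taken from 4 lists of 140 symbols, gave 43 in the table, all tested in each comparison. In A1 against Aal 7 were called higher and none lower by limma, with 23 higher and 4 lower at an unadjusted p under 0.05, and limma voom on the recovered reads called 8 higher and none lower. For all genes together the calls in this comparison were 4.19% higher and 4.97% lower. The share of all genes at the unadjusted threshold was not counted, so the counts at that threshold have no background here. The 7 were Ube2c (1.42 ± 0.13, adjusted p = 0.000315), the ubiquitin-conjugating enzyme of the anaphase-promoting complex, Cdca3 (1.19), a gene of mitotic entry, the spindle gene Ckap2l (1.37), the repressor E2F genes E2f8 (1.16) and E2f7 (1.13), Foxm1 (1.14), the transcription factor of G2 and M phase genes, and Wee1 (1.07), the kinase that holds Cdk1 inactive. In A3 against Aal 6 were higher (E2f8 1.75, Ckap2l 1.41, Foxm1 1.32, Ube2c 1.27, Cdca3 1.26 and E2f7 1.03) and 1 lower, the retinoblastoma gene Rb1 (-1.26 ± 0.08, adjusted p = 2.07e-05), whose product restrains E2F factors downstream of D-type cyclins. In A3 against A1 only Cdc25b, a phosphatase that activates Cdk1, was called, and it was lower (-1.17 ± 0.13, adjusted p = 0.00184), beside 1.02% of all genes called lower. In A3 against Aal 7.87% of all genes were called higher and 9.69% lower. By list, the called genes were 2 of 10 in the anaphase-promoting complex and separation list in A1 and in A3, 1 of 14 in the spindle, centrosome and cytokinesis list in each, 4 of 14 in A1 and in A3 in the cyclin-dependent kinase list, and 0 of 5 in the kinetochore and checkpoint list by limma or voom (at an unadjusted p under 0.05 limma had 3 higher in A1 and in A3, and voom 2 and 3). The median log2 fold changes over the 43 genes were 0.23, -0.01 and 0.20 in A1 against Aal, A3 against A1 and A3 against Aal.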

How the data were processed

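FACS-isolated EGFP+ germ cells gave 8 stranded, single-end mRNA libraries. The authors trimmed reads with cutadapt 1.9, aligned them to mm9 with STAR 2.5.2b, counted them per gene with featureCounts and deposited FPKM for each library. Which annotation was counted, whether strand was used, and how counts became FPKM are not given in the sources used here. The labels give WIN 18,446 through P10 in one place and to P11 in another.

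Genes with FPKM of at least 1 in at least 2 libraries compared were tested on log2(FPKM + 1) with limma 3.58.1 (eBayes with a mean-variance trend, R 4.3.3), pair of groups by pair, over the whole table. Fold changes on this scale understate the change of low genes. Whole reads were recovered for 100% of values (within 0.05 read) and the fewest for a member in a library were 7. Replicates differed by more than counting noise (chi-square per gene 5.81 to 22.3). Fits were also run on simulated data, with planted changes above the fold threshold and a spread set alike for all genes. That was no check of calls near the threshold. Values in every library are given for called members, at most 12 per comparison and direction by size of change, and for the most abundant and most changed member of each role; Tubb5, Tuba1a, Cenpb and Tubb4a were added after their values were seen. Promoters are those of the called members with the largest change, a sequence and a match. Members and lists were chosen with earlier results of these data known. Pseudocount, minimum, scaling, thresholds, samples fitted, trend, block, voom on recovered reads and leaving out each library were varied.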

Additional observations from a re-analysis of the deposited data

How the results depend on the processing

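Without the fold threshold the members called were 36 in A1 against Aal, 7 in A3 against A1 and 42 in A3 against Aal. In A3 against A1, 2 members were called with a pseudocount of 0.1 and 2 with voom on recovered reads (Ccnd1 and Kif13a). With quantile scaling limma called 0, where 25 members had an unadjusted p under 0.05. The share of all genes at this unadjusted threshold was not counted, here or in the fits below. Apart from the calls without the fold threshold, the share of all genes called was not counted for any alternative. Leaving out 1 library at a time gave 11 to 23 calls in A1 against Aal, 0 to 2 in A3 against A1 (0 without A3 replicate 2 or 3, with 18 and 21 members at an unadjusted p under 0.05) and 19 to 24 in A3 against Aal. A fit that keeps 1 Aal library assumes that it varies like the other group, and 21 of the 32 values of named members that were no longer called came from such fits.

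Same-numbered A1 and A3 libraries had correlations of their deviations of -0.11, 0.02 and -0.32, and no A1 library correlated best with its own number. So few libraries cannot exclude a shared litter or batch, and Aal was not examined in this way. With the replicate block 22, 1 and 23 members were called, and Cdc20, Kif20a and Kif2c each lost a call while Spc24 gained one. Aal has no replicate 3, so against Aal the block gave the same fold changes as leaving out replicate 3 of the other group. Examples are 0.99 for Kif2c in A1 and 0.92 for Cdc20 in A3. In these comparisons the block is therefore no separate check of pairing. Of 639 alternative values of called named members 607 kept their call, and none changed sign. Signs did change for values that were not called. Anapc2 in A1 against Aal went to -0.007 with median-ratio and -0.085 with quantile scaling. In A3 against A1, leaving out 1 library gave -0.35 to 0.065 for Aurka, -0.29 to 0.091 for Cdc20, -0.028 to 0.16 for Kif20a, -0.17 to 0.24 for Nusap1, -0.036 to 0.53 for Plk1, -0.20 to 0.12 for Prc1, -0.074 to 0.29 for Tpx2, -0.067 to 0.46 for Tubb3 and -0.27 to 0.10 for Tubg2. Except for the left-out libraries the cause was not tested. Scaling moved the median of all genes by less than 0.1.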
